A study of Mus musculus with 63 samples.

Results

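Constitutive promoter regions of mouse embryonic fibroblasts (mEFs) were stretches of open chromatin that carried a peak in each of 6 ATAC-seq libraries and lay at the start of a gene. Overlapping peaks of 3 wild-type (WT) libraries and 3 *Chaserr*-/- libraries were merged into 122419 regions. Of these, 38126 (31.1%) held a peak in all 6 libraries, and 11666 (9.53% of all regions) also came within 300 bases of an annotated gene start on the mouse build mm9. The other 26460 constitutive regions lay away from gene starts and are the comparison used here. The choice rested on the presence of a peak and on position, so that a peak in every library is no finding. Within these regions the height of a peak was compared with gene expression in WT mEFs and between genotypes.

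ATAC-seq uses a transposase that inserts sequencing adapters where DNA is free of nucleosomes. The start of an active gene is usually such a place, since the general transcription factors and RNA polymerase II assemble there. Many mammalian promoters, above all those of housekeeping genes, lie in CpG islands, stretches of DNA that keep their CG dinucleotides and often bind factors of the SP/KLF, ETS, NRF1, YY1 and NF-Y families, whereas many tissue-restricted genes start from CpG-poor promoters with a TATA box. CHD proteins are chromatin remodellers that move nucleosomes, and *Chd2* encodes a member of this family.

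The study followed *Chaserr*, a long noncoding RNA gene that lies upstream of *Chd2* on the same strand. The WT mEFs came from the same pregnancy as the *Chaserr*-/- mEFs, in which the promoter and first exon of *Chaserr* are deleted. The deletion exists in 2 mouse lines that the study used interchangeably. A second set held 3 *Chaserr*-/- *Chd2*m/m libraries, which also carry a small coding deletion in *Chd2*, and 3 WT libraries of their own pregnancy. No agent was given to any of these groups. The mEFs were cultured from E13.5 embryos without liver and head, are a mixed population and were not sorted. RNA-seq was available for 3 WT and 3 *Chaserr*-/- mEF cultures that shared a pregnancy with each other, and for WT whole embryos at E9.5 and E13.5 and WT brain. Whether that was also the pregnancy of the ATAC-seq mEFs is not stated in the labels. Which ATAC-seq library shares a culture with which RNA-seq library was not stated.

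Representative promoters are shown because each carries a letter pattern or a position that the values below return to. Each run is mm9 sequence, 5′ to 3′ on the strand of the gene, centred on the highest WT summit with 100 bases on each side. Capitals mark matches, on either strand, to the motifs SP/KLF (GGGCGG), NF-Y (CCAAT), ETS (CCGGAAG), NRF1 (GCATGCGC) and AP-1 (TGANTCA). *Mcm3* (replicative helicase) shows 3 matches to NF-Y, and *Polr2k* (an RNA polymerase II subunit) shows an ETS match. The end of *Cct6a* (a chaperonin subunit) lies 1170 bases upstream of the start of *Sumf2* (a relative of the sulfatase-modifying enzyme). The end of *Rassf1* (a scaffold of Hippo signalling) lies 992 bases upstream of the start of *Tusc2*. *Ttll13* (a tubulin-modifying enzyme) had a high peak with little RNA. The window at *Chd2* held none of the motifs searched.
*Mcm3* (chr1:20810361-20810561, minus strand): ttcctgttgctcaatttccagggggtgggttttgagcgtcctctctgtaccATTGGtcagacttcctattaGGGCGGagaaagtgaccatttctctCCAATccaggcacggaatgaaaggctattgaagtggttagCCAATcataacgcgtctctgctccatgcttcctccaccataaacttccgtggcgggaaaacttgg
*Polr2k* (chr15:36103618-36103818, plus strand): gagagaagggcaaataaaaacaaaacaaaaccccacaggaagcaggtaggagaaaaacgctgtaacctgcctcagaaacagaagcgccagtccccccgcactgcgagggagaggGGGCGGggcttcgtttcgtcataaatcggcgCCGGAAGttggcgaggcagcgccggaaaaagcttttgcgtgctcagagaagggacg
*Cct6a* (chr5:130293109-130293309, plus strand): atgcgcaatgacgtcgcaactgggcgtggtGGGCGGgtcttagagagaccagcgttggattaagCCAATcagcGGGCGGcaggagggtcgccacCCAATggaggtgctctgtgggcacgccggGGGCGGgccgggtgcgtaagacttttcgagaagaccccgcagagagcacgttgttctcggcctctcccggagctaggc
*Sumf2* (chr5:130322698-130322898, plus strand): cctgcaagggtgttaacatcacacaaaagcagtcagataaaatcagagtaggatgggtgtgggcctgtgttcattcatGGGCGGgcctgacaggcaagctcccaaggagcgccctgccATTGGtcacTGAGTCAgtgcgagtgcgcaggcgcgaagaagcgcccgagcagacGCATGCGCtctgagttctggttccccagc
*Rassf1* (chr9:107453727-107453927, plus strand): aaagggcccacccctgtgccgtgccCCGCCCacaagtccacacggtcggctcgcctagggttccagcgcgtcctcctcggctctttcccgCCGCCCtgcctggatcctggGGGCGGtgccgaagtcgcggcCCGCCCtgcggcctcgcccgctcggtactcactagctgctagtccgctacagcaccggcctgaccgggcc
*Tusc2* (chr9:107465442-107465642, plus strand): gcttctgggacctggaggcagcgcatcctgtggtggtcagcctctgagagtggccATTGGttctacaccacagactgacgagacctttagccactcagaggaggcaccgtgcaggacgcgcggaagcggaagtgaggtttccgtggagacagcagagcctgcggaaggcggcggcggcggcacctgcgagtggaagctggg
*Ttll13* (chr7:87391156-87391356, plus strand): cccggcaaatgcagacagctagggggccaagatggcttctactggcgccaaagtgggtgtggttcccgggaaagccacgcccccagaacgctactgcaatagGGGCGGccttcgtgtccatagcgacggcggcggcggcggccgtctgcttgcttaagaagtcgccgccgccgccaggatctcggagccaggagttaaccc
*Chd2* (chr7:80686494-80686694, minus strand): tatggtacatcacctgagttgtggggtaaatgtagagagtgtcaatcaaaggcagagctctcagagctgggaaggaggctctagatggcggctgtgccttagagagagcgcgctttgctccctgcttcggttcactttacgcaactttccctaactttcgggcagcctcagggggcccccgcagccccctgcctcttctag
The deleted promoter is shown for comparison, as 250 bases before to 50 after the RefSeq start, found by an exact match of that sequence to mm9.
*Chaserr* (chr7:80703232-80703531, minus strand): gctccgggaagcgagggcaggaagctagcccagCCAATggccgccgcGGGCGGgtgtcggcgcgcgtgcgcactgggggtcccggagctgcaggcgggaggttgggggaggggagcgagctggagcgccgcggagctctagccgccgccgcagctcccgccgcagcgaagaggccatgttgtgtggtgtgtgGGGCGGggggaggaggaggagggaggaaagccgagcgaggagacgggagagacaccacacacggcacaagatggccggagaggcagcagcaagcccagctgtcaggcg

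The *Chaserr* promoter carried a peak in 3 of 3 WT libraries of the *Chaserr*-/- pregnancy, with fold enrichments of 16.8, 14.2 and 12.7, and in none of the 3 *Chaserr*-/- libraries. Fold enrichment is the height of a peak over its local background as given by the peak caller. In the second set the peak was again present in all 3 WT libraries (14.7, 12.6 and 11.0) and in none of the 3 double mutants. *Chaserr* RNA was 8.51, 6.88 and 5.25 FPKM in WT and was listed at 0 in each *Chaserr*-/- culture, so the labels held. *Chaserr* is not annotated in GENCODE vM1, the annotation used to define gene starts. Promoters of marker genes were counted by cell type. A constitutive promoter was found for 54.2% of all protein-coding genes. Among those with a mean WT mEF level of at least 1 FPKM the share was 84.7%. The marker counts are therefore a description and do not test fibroblast identity. Of 19 fibroblast genes, 15 had a constitutive promoter, against 7 of 12 for neurons, 2 of 11 for chondrocytes, 1 of 15 for macrophages, 1 of 14 for skeletal muscle, 1 of 8 for endothelium, 1 of 7 for pluripotent cells and none of 8 for epithelium or for erythroid and liver cells. The neuronal genes were *Tubb3*, *Elavl4*, *Gap43*, *Nefl*, *Nefm*, *Syn1* and *Syp*.

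The libraries differed in how many peaks were called. WT libraries held 58324 to 70516 peaks and *Chaserr*-/- libraries 62610 to 93597. The median fold enrichment of the constitutive promoters was 11.0, 10.8 and 10.2 in WT and 10.7, 10.3 and 10.4 in *Chaserr*-/-, and that of the other constitutive regions ran from 6.88 to 8.88. Since each library has its own background, regions were compared by percentile rank, where 0 is the lowest and 100 the highest fold enrichment among the 11666 promoters of a library. Between any 2 of the 6 libraries the Spearman correlation of the promoter fold enrichments was 0.804 to 0.889. The rank of a promoter had a median SD of 7.86 over the 3 WT libraries and 8.02 over the 3 *Chaserr*-/- libraries. In the second set, WT replicate 2 and double mutant replicate 1 stood apart with 18661 and 28349 peaks. They held a peak at 60.3% and 75.02% of the constitutive promoters, whereas the other 4 libraries of that set held one at 97.5% to 99.2%.

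The 11666 regions covered 13699 gene starts, of which 12090 were protein-coding, 54.0% of the 22380 protein-coding starts annotated. Starts of long intergenic noncoding RNAs were covered to a similar extent (688 of 1273, 54.0%), and pseudogene starts rarely (149 of 5201, 2.86%). Most regions held 1 start (9660), 2006 held more, and 1822 (15.6%) held starts on both strands. The median region was 1007 bases wide (quartiles 800 and 1250), against 622 bases for the other constitutive regions. At the regions with a single protein-coding start the summit lay at a median of 11 bases upstream of it (quartiles 84 bases upstream and 78 downstream). On the X chromosome lay 360 regions.

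At the edge of the rule, the 176 promoters in the outer 100 bases of the 300 allowed had a median WT fold enrichment of 6.76, and the 161 constitutive regions in the next 100 bases outside had 6.72. The 10967 regions that covered a start had 10.9. Of the promoter regions that missed a peak in a single library, 263 lacked it in WT replicate 6 and 3 in *Chaserr*-/- replicate 3, in the order of the peak numbers of those libraries (58324 and 93597). Of 412 promoter regions with a peak in 3 libraries, 8 had it in all 3 WT libraries and 58 in all 3 *Chaserr*-/- libraries. *Chaserr*-/- libraries 2 and 3 held the most peaks. The share among all merged regions is not given here, so these counts are no result about promoters. The 8 had fold enrichments of 3.08 to 6.44 and included *Gabrq*, *Dkk3*, *Glis2* and *Zhx2*.

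Base composition set the constitutive promoters apart from the other open regions. The sequence within 150 bases of their summits had a median GC content of 65.4%, against 48.8% for the other constitutive regions. The ratio of observed to expected CpG was over 0.6 in 82.4% of the promoters and in 12.0% of the other regions. It exceeded 0.6 in 49.8% of all protein-coding starts and in 6.40% of the starts that had no peak in any library. These shares compare regions, which are not replicates, and no test was made.

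Motifs of housekeeping promoters were frequent at the summits. A match to GGGCGG, the GC box bound by SP/KLF factors, stood in 70.2% of the constitutive promoters, 15.2% of the other constitutive regions and 45.8% of all protein-coding starts, each within 150 bases of the summit or start and on both strands. The ETS letters CCGGAAG stood in 17.8%, 2.98% and 11.3% of these sets, the NRF1 letters GCATGCGC in 4.86%, 0.983% and 3.11%, and the YY1 letters AAGATGGCG in 3.33%, 0.395% and 2.29%. The cyclic AMP response element TGACGTCA followed at 3.53%, 0.930% and 2.23%, the E-box CACGTG at 9.75%, 5.18% and 7.30%, and the ZBTB33 letters CTCGCGAG at 1.99%, 0.178% and 1.16%. The opposite order held for 2 motifs. The TATA box TATAAA stood in 3.98% of the constitutive promoters but in 13.51% of the other regions, and the AP-1 letters TGANTCA, bound by FOS and JUN proteins, in 4.83% but 36.4%. NF-Y letters (CCAAT) were about as frequent everywhere, at 36.2%, 31.1% and 35.8%. A match describes letters and no bound site, and no motif holds another within its letters. The constitutive promoters and the other constitutive regions differ in GC content as given above. The part of GC content in these motif shares was not tested.

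Genes with a constitutive promoter were expressed far more often than genes without one. Expression was taken as the mean FPKM (fragments per kilobase of transcript, scaled to the fragments of the library) of the 3 WT mEF cultures, with 1 FPKM as the limit. Of 11457 protein-coding genes with a peak in 6 of 6 libraries 85.7% reached it, with a median of 8.13 FPKM. Of 441 genes with a peak in 5 libraries 48.5% did, and of 6712 genes with a peak in none 16.7% did, with a median of 0.01 FPKM. Seen from the RNA, 9818 of 11592 expressed protein-coding genes (84.7%) had a constitutive promoter, and 1119 (9.65%) had no peak at their annotated start in any library. Only the annotated 5′ end of each gene was examined, so a gene that starts elsewhere counts as without a peak. *Rps10* at 4483 FPKM and *Rps2* at 2741 FPKM were among the 1119. The use of other starts was not tested.

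**Figure D1:**
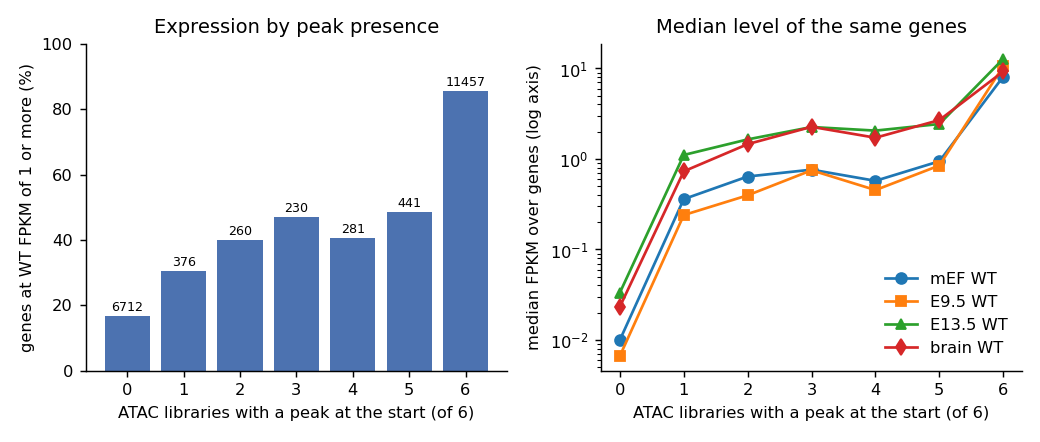
Protein-coding genes grouped by how many of the 6 ATAC-seq libraries held a peak in the same region at their start. The left panel gives the share with a mean WT mEF level of 1 FPKM or more (%), with the number of genes above each bar, and the right panel the median FPKM of these genes on a log axis in WT mEFs, E9.5 and E13.5 embryos and brain. The share runs from 16.7% with no peak to 85.7% with a peak in all 6 libraries.

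The same genes were expressed outside fibroblasts. Of the genes with a constitutive mEF promoter, 76.6% reached 1 FPKM in mEFs, brain and embryos of either age alike, against 9.49% of genes with no peak. These shares cannot exceed those in mEFs, 85.7% and 16.7%, so they partly restate the mEF difference. The median of the genes with a constitutive promoter was 10.6 FPKM at E9.5, 12.8 at E13.5 and 9.26 in brain. Most macrophage and skeletal muscle marker genes were expressed without a constitutive promoter, whereas 7 of 12 neuronal genes (58.3%) had one, against 54.2% of all protein-coding genes. All 15 macrophage genes of the list matched to an annotated gene were expressed, with a median of 29.1 FPKM, yet only *Cd14*, a lipopolysaccharide receptor, had a constitutive promoter. *Lyz2* (lysozyme) had a peak in 5 libraries and *Cd68* in 2, and *Csf1r*, *Ptprc*, *C1qa* and *Itgam* had none. Of 14 skeletal muscle genes 13 were expressed, and only *Des* (desmin) had a constitutive promoter. *Actc1* (cardiac actin) was at 437 FPKM with no peak. In bulk samples a type made up of few cells with much RNA cannot be told apart from low RNA in many cells. Of the fibroblast genes, *Col1a2*, *Fbn1*, *Pdgfra* and *Prrx2* had no peak within 300 bases of the annotated start.

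Among the constitutive promoters themselves, peak height was compared with expression. Over the 10828 promoters with a matched expression row the Spearman correlation of the mean WT rank with WT mEF expression was 0.188 (Pearson on the log2 scale 0.196), given as a description over regions that share the same libraries. It was 0.188, 0.146 and 0.203 in WT replicates 4, 5 and 6 and 0.181, 0.0968 and 0.0508 in *Chaserr*-/- replicates 1, 2 and 3. Among the 9277 promoters of genes at 1 FPKM or more it was 0.0723. Ranked by the −log10 q value of the peak, it was 0.306. The same mEF ranks had a correlation of 0.321 with expression at E9.5, 0.247 at E13.5 and 0.177 in brain.

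Split into 5 equal groups by WT rank, expression differed most at the bottom. The median fold enrichment was 6.20, 8.60, 10.7, 12.8 and 15.4 from the lowest group to the highest, which the split itself fixes, and the median expression was 4.23, 7.46, 8.52, 10.8 and 11.3 FPKM. The share of expressed genes ran from 72.4% in the lowest group to 93.9% in the highest, and the share under 0.1 FPKM from 8.42% to 1.07%. At 100 FPKM or more stood 5.74% of the lowest group and 6.80% of the highest. Over all matched promoters 85.7% were expressed and 426 (3.93%) were under 0.1 FPKM.

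Motif content also differed along the rank. ETS matches stood in 6.98% of the lowest group and 31.0% of the highest, NF-Y matches in 23.7% and 51.3%, NRF1 matches in 1.59% and 6.94%, and YY1 matches in 1.46% and 5.27%. TATA boxes went the other way, from 6.08% to 1.84%, as did AP-1 letters, from 7.11% to 3.13%. Promoters with an ETS match had a median WT rank of 68.3, those with ZBTB33 letters 66.0, YY1 65.9, NRF1 65.3, NF-Y 60.7 and SP/KLF 53.6, against 50.2 for all. Promoters with AP-1 letters had 37.9 and those with a TATA box 35.1. The 2050 promoters with a CpG ratio of at most 0.6 had 31.4. GC content itself had a correlation of −0.0664 with the rank, the CpG ratio 0.176 and the width 0.0345. Starts on both strands were found at 10.3% of the lowest group and 19.5% of the highest.

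**Figure D2:**
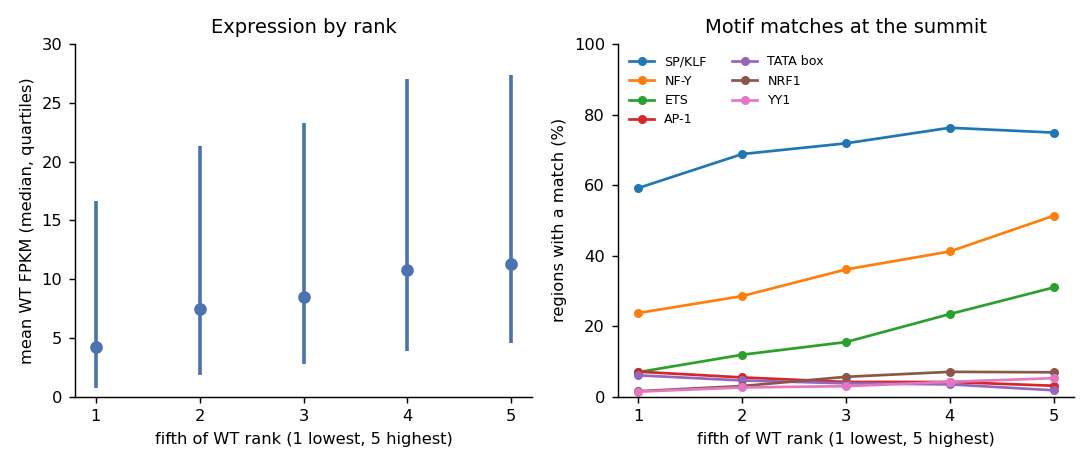
The constitutive promoters split into 5 equal groups by their mean WT rank (1 lowest, 5 highest). The left panel gives the median mean WT FPKM of their genes, with lines from the lower to the upper quartile, and the right panel the share of promoters (%) with a motif match within 150 bases of the summit. Median expression runs from 4.23 to 11.3 FPKM, and ETS matches from 6.98% to 31.0%.

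Gene groups sat at different heights, and the order did not follow their RNA. The promoters of 28 of 28 Mediator subunits, which bridge transcription factors and RNA polymerase II, were constitutive with a median WT rank of 80.0 and a median expression of 18.2 FPKM. Replication and mitosis genes (22 of 22) had a median rank of 78.0, and NF-Y letters stood at 20 of the 22 summits (90.9%, against 36.2% of all constitutive promoters). *Cdc6*, which loads the replicative helicase, had ranks of 99.7, 88.8 and 99.2 in WT, and *Mcm3* had 95.4, 87.9 and 94.2. *Aurkb*, a mitotic kinase, was the lowest of the list with 9.57, 12.4 and 33.0. Proteasome genes (36 of 39) had a median of 75.5, and cytosolic ribosomal protein genes (73 of 78) 60.1, although their median expression was 67.0 and 1263 FPKM. ZBTB33 letters stood at 13.7% of the ribosomal protein summits, YY1 letters at 11.0% and ETS letters at 32.9%. *Rpl8* was lowest among them at a mean WT rank of 13.1. RNA polymerase II subunits (12 of 12) had a median of 57.0, with ranks of 27.2, 25.9 and 37.1 for *Polr2a*, the largest subunit, and 73.5, 88.6 and 77.5 for *Polr2k*.

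Among the lists with more than 2 constitutive promoters, fibroblast and immediate early genes had the lowest median ranks. The 15 fibroblast promoters had a median WT rank of 15.3 at a median expression of 161 FPKM. *Col1a1* (type I collagen) was at 1305 FPKM with WT ranks of 3.47, 8.08 and 1.66. *Vim*, the intermediate filament protein of mesenchymal cells, was at 2555 FPKM with 26.5, 12.7 and 16.8, and *Sparc*, a matrix glycoprotein, at 1995 FPKM with 28.3, 18.5 and 19.3. The median CpG ratio of these promoters was 0.38 (0.82 for all), a TATA box stood at 5 of the 15 summits, and the median rank of the −log10 q value was 21.0. Immediate early genes, the fast responders to growth signals (18 of 21 constitutive), had a median rank of 17.4. *Egr1* had 7.73, 6.73 and 10.5, *Junb* 3.36, 2.21 and 1.62, and *Zfp36*, which destabilises cytokine mRNAs, 2.94, 0.673 and 0.467, whereas *Klf2* had 91.0, 77.5 and 89.0. Ranked by −log10 q the immediate early promoters had a median of 54.1. The local background is part of the fold enrichment, and constitutive open sequence within 5 kb on each side had a correlation of −0.226 with the rank and 0.206 with expression. Its part in these ranks was not tested. CHD remodellers had 6 constitutive promoters of 9, with mean WT ranks of 1.29 for *Chd2*, 3.08 for *Chd7*, 9.21 for *Chd4*, 38.8 for *Chd1*, 78.9 for *Chd9* and 86.6 for *Chd6*. *Chd3*, *Chd5* and *Chd8* had no peak within 300 bases of the annotated start.

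**Figure D3:**
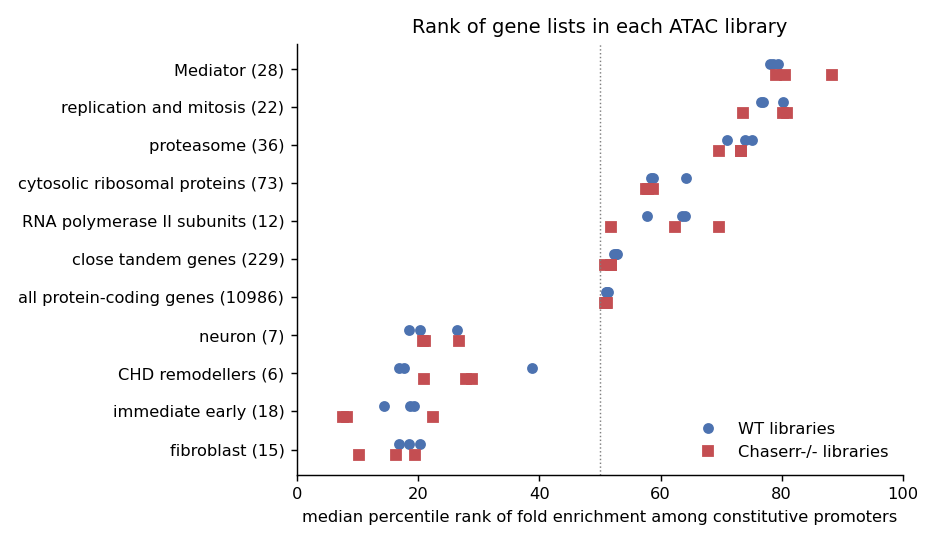
Median percentile rank of fold enrichment (x axis, 0 to 100) of the constitutive promoters of each gene list, with the number of promoters in parentheses, in each of 3 WT (circles) and 3 *Chaserr*-/- libraries (squares). Mediator promoters lie at 78.2 to 88.2 over the 6 libraries and fibroblast promoters at 10.3 to 20.3.

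The extremes of the rank lay at unusual loci. The 6 highest were *Gm13532*, *Gm11407*, mmu-mir-689-2, mmu-mir-2134-4, AC115697.1 and *Gm10800*, pseudogenes, miRNA loci and predicted genes with no matched expression row. *Gm13532* had fold enrichments of 36.8, 38.8 and 37.6 in WT and 33.9, 34.5 and 33.0 in *Chaserr*-/-. The lowest were 3 regions of the mitochondrial genome (fold enrichments of 1.17 to 1.83), the pseudogene *AY036118*, *Gm10222*/*Gm10925* and *Trip10*, an adaptor of the actin cytoskeleton with 2.92, 2.81 and 2.77 in WT. At loci with near-identical copies elsewhere the reads could have been placed at any copy. The widest region, chr8:126062397-126147881, spanned 85485 bases and 51 gene starts.

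High peaks without RNA and low peaks with much RNA both occurred. *Ttll13* had WT ranks of 99.3, 99.5 and 99.9 at 0, 0.11 and 0.10 FPKM. *Ccdc150* (99.8, 98.0 and 98.2), *B930007M17Rik* (95.4, 98.8 and 98.4) and *Khdrbs2*, an RNA-binding protein (95.9, 90.2 and 95.2), were likewise under 0.1 FPKM on average. *Khdrbs2* was at 5.01 FPKM in E13.5 embryos and 4.12 in brain. At the other end *Pfn1*, the actin-binding protein profilin, had ranks of 0.784, 0.973 and 0.999 at 1576, 1972 and 1499 FPKM. *Cnn2*, a calponin, had 0.159, 0.570 and 0.0986 at 561, 703 and 566 FPKM, and *Rnasek* and *Myadm* had mean ranks of 0.739 and 1.16 at over 100 FPKM in each WT culture. *Chd2* had ranks of 2.93, 0.416 and 0.536 in WT (fold enrichments of 4.58, 3.68 and 3.63). A higher peak lay inside *Chd2*, at chr7:80682380-80683199, with 15.1, 13.0 and 11.6 in WT and 13.6, 11.7 and 9.82 in *Chaserr*-/-.

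Between genotypes no constitutive promoter passed the test. Limma on the percentile ranks, adjusted over all 38126 constitutive regions, called 0 of 11666 promoters in *Chaserr*-/- against WT (0% of all regions called), with a smallest adjusted p of 0.725. At an unadjusted p under 0.05 stood 565 of the 11666 promoters, against 2624 of all 38126 regions. Of the 565, 321 were higher and 244 lower in *Chaserr*-/-, and the split over all regions is not given here. On the log2 fold enrichment limma again called none, with a smallest adjusted p of 0.367. On this scale 604 of the promoters had an unadjusted p under 0.05, against 3793 of all 38126 regions. The WT and *Chaserr*-/- ranks did not overlap at 1587 promoters (13.6%), against 12.5% of all regions. Of these 753 were higher in *Chaserr*-/- (6.45%, background 5.81%) and 834 lower (7.15%, background 6.71%). The median absolute difference in rank was 5.98, and differences ran from −38.9 to 50.2. Per the study, the mEFs of its ATAC-seq tracks were isolated from different embryos of the WT and *Chaserr*-/- backgrounds. Which embryo gave which library is not stated in the labels. The read depth of the ATAC-seq libraries is unknown. The study instead compared read coverage with DESeq2 and reported regions of increased and of reduced accessibility, including some near gene starts. It also reported a mild increase at the *Chd2* promoter. Ranks of fold enrichment are another measure, so the absence of calls here cannot be set against those counts.

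The difference in rank varied with base composition, among other traits. Its Spearman correlation with GC content was −0.348 over the 11666 promoters. With region width it was −0.219 and with the mean WT rank itself −0.174. Promoters with a CpG ratio of at most 0.6 had a median difference of 4.08 (*Chaserr*-/- minus WT) and those above it −1.26. The correlation of GC content with rank was −0.0540, −0.0786 and 0.0387 in WT and −0.117, −0.192 and −0.145 in *Chaserr*-/-, so that it was lower in each *Chaserr*-/- library than in each WT library. The part of GC content in the values of single promoters was not tested.

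The promoters with the smallest p among those that did not overlap are given as values. None passed the adjusted test (limma adjusted p of 0.725 for each). *Oprk1*, an opioid receptor gene at 0.06, 0 and 0 FPKM in WT, had ranks of 0.673, 6.21 and 1.87 in WT and 32.7, 35.3 and 33.7 in *Chaserr*-/-. The difference was 31.0 (SE 5.59), and fold enrichments were 3.68, 5.49 and 4.18 against 8.68, 8.86 and 8.88. *Zfp879*, a zinc finger gene, had 30.8, 53.4 and 46.8 in WT and 89.0, 93.0 and 80.1 in *Chaserr*-/- (43.7, SE 10.1). *Mapk10*, a neuronal JNK kinase, had 55.9, 52.8 and 64.4 against 93.7, 83.9 and 93.1 (32.5, SE 7.34), and *Slc25a17*, a peroxisomal carrier, 67.5, 65.7 and 73.7 against 92.4, 91.4 and 94.7 (23.9, SE 5.27). *Sel1l*, of the endoplasmic reticulum degradation machinery, had a difference of 17.9 and *Srl*, a sarcoplasmic reticulum protein, 19.9. The expression of *Oprk1* and *Zfp879* stayed at or under 0.45 FPKM in all 6 cultures. In the other direction *Tmem64*, a regulator of calcium and Wnt signalling, had 81.2, 90.4 and 95.7 in WT and 53.6, 64.3 and 57.2 in *Chaserr*-/- (−30.7, SE 7.55). *Ankrd42* had a difference of −25.6, the promoter shared by *8430406I07Rik* and *Snx5* −22.8, *Rc3h2* −21.0 and *Gorasp2*, a Golgi stacking protein, −17.4.

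**Figure D4:**
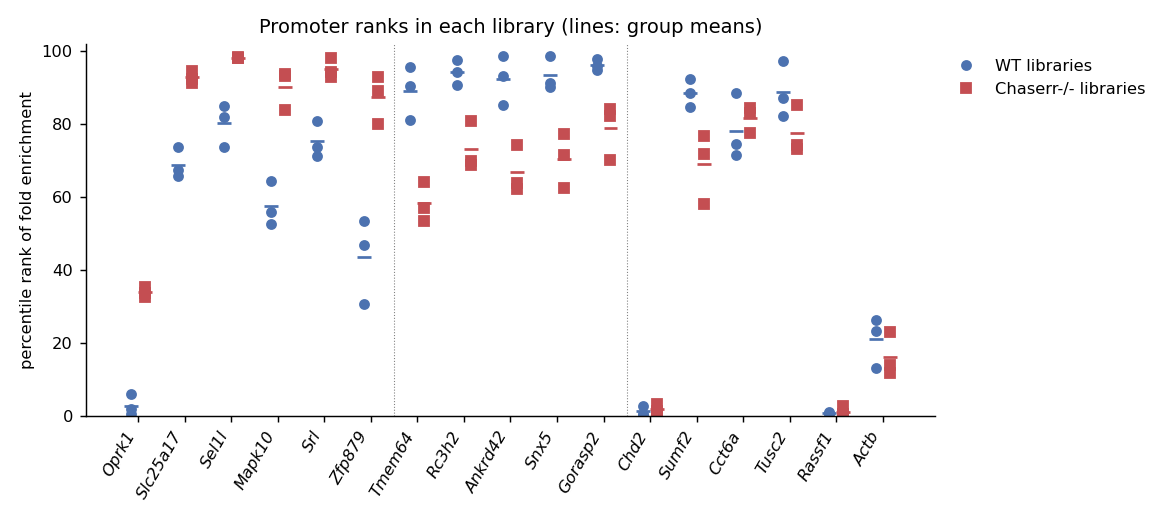
Percentile rank of fold enrichment (y axis, 0 to 100) of single promoters in each of 3 WT (circles) and 3 *Chaserr*-/- libraries (squares), with lines at group means. The left block holds the 6 promoters higher and the middle block 5 of the 6 lower in *Chaserr*-/- with the smallest p among those whose groups do not overlap, and the right block promoters of genes the study names. None passed the adjusted test, with a smallest adjusted p of 0.725.

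Promoters just downstream of another gene were a question of the study, which named several. *Sumf2* had ranks of 84.8, 88.5 and 92.4 in WT and 71.9, 76.9 and 58.3 in *Chaserr*-/-. The groups did not overlap, and the difference was −19.5 (SE 6.71, limma adjusted p = 0.725). Its upstream neighbour *Cct6a* had 88.4, 74.7 and 71.7 against 77.5, 84.4 and 83.0, which overlap. *Tusc2* had 87.2, 97.2 and 82.2 against 74.2, 73.3 and 85.3, which overlap as well, and its upstream neighbour *Rassf1* had 0.553, 1.27 and 1.01 against 0.536, 2.81 and 0.313. The starts of *Eef2*, *Actb*, *Cnot2* and *Chd1* lay over 10 kb from an upstream same-strand end, so these are not promoters just downstream of another gene. *Eef2*, a translation elongation factor, had a mean of 21.0 (SD 10.8) against 9.48 (SD 4.82), and *Actb* (cytoplasmic actin), *Cnot2* and *Chd1* overlapped between genotypes. *Chd2*, which lies downstream of *Chaserr*, overlapped as well. *Cpt1c* had a peak in WT replicates 4 and 5 only (4.00 and 3.89) and *Dapk3* in none. *Ctsk* had 2 separate regions near its start with a peak in 5 libraries each, one without *Chaserr*-/- replicate 1 and the other without WT replicate 6. None of the 3 was constitutive by the rule. Genes starting less than 2 kb downstream of a same-strand gene at 10 FPKM or more numbered 354, and 229 of them had a constitutive promoter. Their groups did not overlap at 44 (19.2%, background 12.5%), 17 higher and 27 lower. With an upstream gene at any level the promoters numbered 605, and 97 (16.0%) did not overlap, 48 higher and 49 lower, with a median difference of 0.24. For the 229 the median difference was −1.26, against −0.51 for all protein-coding promoters and −0.73 for those over 10 kb from an upstream end.

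The double mutant set, which the rule did not use, gave no call either. A peak in all 12 libraries was found at 6702 constitutive promoters. Limma called 0 of them in *Chaserr*-/- *Chd2*m/m against WT (0% of 12443 regions). At an unadjusted p under 0.05 stood 60 of these promoters, against 142 of the 12443 regions. The groups did not overlap at 342 (5.1%, background 5.55%). *Slc25a17* had ranks of 89.8, 23.0 and 56.8 in WT and 81.7, 83.9 and 86.9 in the double mutant, which overlap, with a difference of 27.6, and *Sel1l* had a difference of −0.84. The 147 close tandem promoters had a median difference of −1.10, and 7 did not overlap, against 330 of 6435 protein-coding promoters. The median difference was −0.24 for all protein-coding promoters and −0.52 for those over 10 kb from an upstream end. With an upstream gene at any level it was 0.46. WT replicate 2 and double mutant replicate 1, with the fewest peaks, enter each of these values. Without WT replicate 2 limma called none, with 72 promoters at an unadjusted p under 0.05 (133 of all regions). Without double mutant replicate 1 it called none, with 92 (180 of all regions).

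RNA changes at genes with a constitutive promoter were counted between the WT and *Chaserr*-/- cultures that shared a pregnancy. EdgeR called 3 of 10699 such genes (background 0.118% of 13580 genes tested), 2 of them higher (background 0.0221%) and 1 lower (background 0.0957%), and all genes called numbered 16. The WT and *Chaserr*-/- cultures did not overlap at 4866 genes (45.5%, background 43.1%). *Chd2* was at 3.32, 3.46 and 3.90 FPKM in WT and 10.5, 8.98 and 10.3 in *Chaserr*-/-, with no overlap, and rose by 1.45 on the log2 scale (SE 0.136, edgeR adjusted p = 0.00568). *Lama3*, a laminin chain of basement membranes, was at 1.15, 0.87 and 0.76 against 3.18, 2.13 and 2.66 and rose by 1.48 (SE 0.212, edgeR adjusted p = 0.0406). *Fzd2*, a Wnt receptor, was at 64.0, 56.7 and 67.3 against 30.4, 31.4 and 38.5 and fell by 0.94 (SE 0.133, edgeR adjusted p = 0.0406). The ranks of these 3 promoters overlapped between genotypes, with *Chd2* at 2.93, 0.416 and 0.536 in WT and 1.52, 1.27 and 3.24 in *Chaserr*-/-. The count depended on the threshold. At an adjusted p under 0.1 it called 2681 of the genes (25.1%, background 24.1%), and DESeq2 at 0.05 called 2176 of 9874 (22.0%, background 21.7%), 1335 higher (background 12.7%) and 841 lower (background 9.09%). Leaving out WT replicate 5 took *Chd2* to an adjusted p of 0.0864 and left no call by edgeR, leaving out WT replicate 4, WT replicate 6 or *Chaserr*-/- replicate 3 left 1, and leaving out *Chaserr*-/- replicate 1 or 2 gave 832 and 2324. The highest edgeR adjusted p of *Lama3* and *Fzd2* with 1 culture left out was 0.180 and 0.164. The DESeq2 adjusted p was 5.45e-17 for *Chd2*, 6.28e-07 for *Lama3* and 3.99e-07 for *Fzd2*. With 1 culture left out the log2 fold change of *Chd2* ran from 1.40 to 1.53. Markers of other cells also differed between these cultures. The summed level of 16 macrophage genes was 982, 797 and 871 FPKM in WT and 594, 626 and 644 in *Chaserr*-/-, and that of 14 skeletal muscle genes 1229, 884 and 702 against 519, 515 and 472, without overlap. The 11 chondrocyte genes (54.9, 74.3 and 79.5 against 21.9, 50.6 and 53.0) and 18 matched fibroblast genes (9035, 9008 and 8740 against 6996, 7606 and 8395) did not overlap either, whereas neuronal, endothelial, epithelial, erythroid and liver, and pluripotent genes did. Their part in the RNA differences was not tested.

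RNA and accessibility were then compared across the promoters. The correlation of the rank difference with the RNA log2 fold change was 0.00767 (9937 regions). *Sumf2* was at 13.3, 12.2 and 13.4 FPKM in WT and 6.59, 4.86 and 1.27 in *Chaserr*-/- (log2 fold change −1.64, edgeR adjusted p = 0.0523). *Tusc2* was at 14.1, 15.3 and 16.6 against 7.74, 10.8 and 11.1 (−0.67, edgeR adjusted p = 0.0527), *Eef2* had −0.56 (edgeR adjusted p = 0.0607) and *Chd1* 0.77 (edgeR adjusted p = 0.0541). DESeq2 called all 4, with adjusted p of 0.0450, 0.0148, 0.0135 and 0.00574. *Tmem64*, whose promoter ranked lower, was at 19.0, 16.8 and 17.6 FPKM in WT and 38.1, 22.2 and 23.9 in *Chaserr*-/- (0.63, edgeR adjusted p = 0.0677).

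Most close tandem genes had less RNA in *Chaserr*-/- than in WT mEFs, without passing the edgeR test. Of 218 tested, 183 had a log2 fold change below 0, against 51.5% of all genes tested, with a median of −0.38. Of 8314 genes over 10 kb from an upstream end 3827 were below 0, with a median of 0.05. EdgeR called none of the 218, and at an adjusted p under 0.1 it had 5 higher (2.29%) and 70 lower (32.1%), where the background is 12.9% higher and 11.1% lower. DESeq2 called 5 higher and 58 lower of 203 (2.46% and 28.6%), where the background is 12.7% and 9.09%. The median level relative to the mean of all 6 cultures was 0.09, 0.23 and 0.20 in WT and −0.42, −0.01 and −0.10 in *Chaserr*-/-, and replicate 1 stood lowest. Without it 178 of 218 were below 0, with a median of −0.23. The RNA log2 fold change also had a Spearman correlation of −0.760 with the GC content of the transcript over 10521 genes (−0.641 without *Chaserr*-/- replicate 1). Close tandem transcripts had a median GC content of 56.1%, against 49.3% for the others. In 4 equal groups of transcript GC content, the medians in the highest group were −0.47 for 132 close tandem genes and −0.40 for 1755 others. In the next group down they were −0.18 (56 genes) and −0.13, then −0.07 (21 genes) and 0.14, and in the lowest 0.44 (9 genes) and 0.47. The part of GC content in the lower RNA was not tested.

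**Figure D5:**
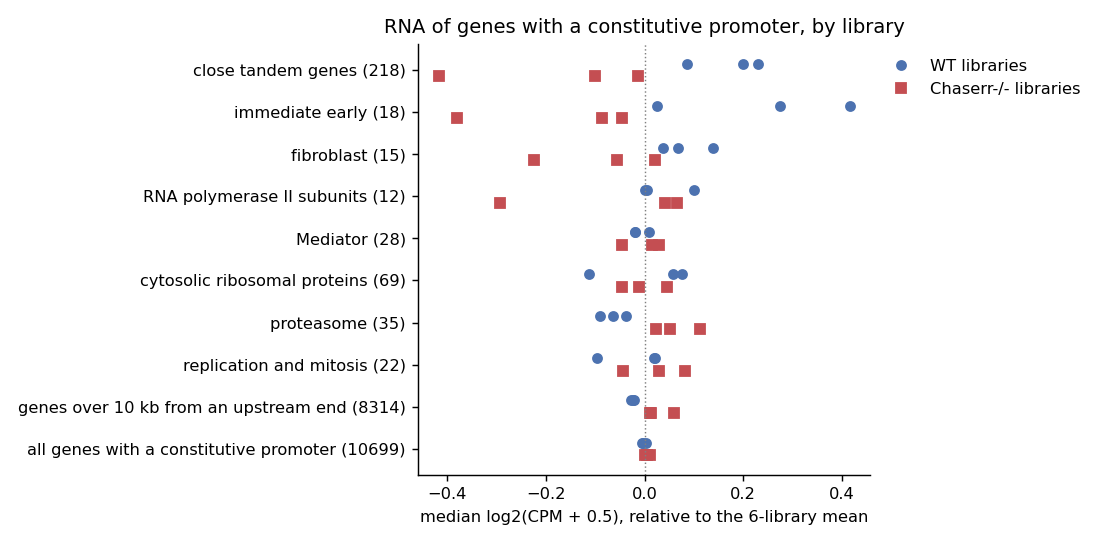
RNA of genes with a constitutive promoter, by culture. The x axis gives the median over the genes of each list of log2(CPM + 0.5) minus its mean over the 6 cultures, with the number of genes in parentheses, in 3 WT (circles) and 3 *Chaserr*-/- cultures (squares). Close tandem genes lie between 0.09 and 0.23 in WT and between −0.42 and −0.01 in *Chaserr*-/-.

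Of the other lists, immediate early genes had 17 of 18 log2 fold changes below 0 (median −0.36), none called by edgeR, and 1 higher and 8 lower by DESeq2 (background of 12.7% higher and 9.09% lower for each list here). It was 13 of 18 without WT replicate 5 or without *Chaserr*-/- replicate 1, and the median was −0.57 without *Chaserr*-/- replicate 3. *Egr1*, a zinc finger transcription factor, had −0.91 (edgeR adjusted p = 0.0522), *Junb*, an AP-1 subunit, −0.81 and *Fos*, its partner, −0.65. The median level of the list was 0.28, 0.42 and 0.03 in WT and −0.38, −0.09 and −0.05 in *Chaserr*-/-. Fibroblast genes had 11 of 15 below 0 (median −0.25), with 2 higher and 2 lower by DESeq2, and *Col1a1* had −0.63. Proteasome genes had 14 of 35 below 0 (median 0.15), with 13 higher and 2 lower by DESeq2. Ribosomal protein genes had 34 of 69 below 0 and replication and mitosis genes 10 of 22, with DESeq2 calls of 12 higher and 7 lower and of 6 higher and 3 lower. Mediator genes had 11 of 28 below 0 and RNA polymerase II subunits 7 of 12. EdgeR called no gene of these lists at 0.05, where the background is 0.118%.

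The RNA change also varied with the height of the WT peak. Over the 5 groups of WT rank, from lowest to highest, the median RNA log2 fold change was −0.16, −0.05, 0.00, 0.09 and 0.10, and the share of genes with a higher level in *Chaserr*-/- ran from 37.5% to 59.5% over 10521 genes. Without *Chaserr*-/- replicate 1 the shares ran from 36.1% to 61.1%. The median transcript GC content ran in parallel, from 52.4% in the lowest group to 48.4% in the highest, and its part in this difference was not tested.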

How the data were processed

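ATAC-seq of mEFs (12 libraries) and RNA-seq of mEFs, embryos and brain were used as deposited. The authors aligned ATAC-seq reads to mm9 with Bowtie2 and called peaks per library with MACS2. The deposited peak lists give a fold enrichment (a ratio), −log10 p-values, −log10 q-values and a score per peak, and no read counts, so the read depth is unknown. The extraction text in the labels speaks of dorsal root ganglia, whereas titles and the study's methods give mEFs. Shifting of reads for the transposase offset is not given in the sources used here. The authors quantified RNA with RSEM on RefSeq transcripts, and the deposited tables give expected counts, TPM and FPKM per gene. Expected counts summed to 9672588 to 11209021 per mEF library.

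Overlapping peaks of the 6 libraries were merged, and the highest fold enrichment of a region was taken in each library. Gene starts were those of GENCODE vM1 on NCBIM37. Expression rows were matched by symbol or synonym (21495 of 24990). Ranks were compared with limma 3.58.1 (eBayes with trend) over all 38126 regions, and rounded expected counts with edgeR 4.0.16 (filterByExpr, TMM, quasi-likelihood test). DESeq2 1.42.0 was the alternative. P-values were adjusted by Benjamini-Hochberg with a threshold of 0.05. The scripts were tested on simulated data, where the rank test recovered fewer changed regions than the test on log2 fold enrichment. Motifs and sequences were read from NCBIM37, and the *Chaserr* start came from RefSeq.

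Genes named were those the study names, the 6 highest and lowest ranks, the 6 rises and 6 falls of smallest p without overlap, genes called by edgeR, up to 4 promoters at each mismatch of rank and RNA, and examples of the lists, which were picked after their values were seen. The members, lists and motifs were chosen with earlier results of these data known. Alternatives were another scale, stricter peaks, another overlap, other filters and each replicate left out. Normal scores, leaving out the mitochondrial genome and regions over 5 kb, the split by CpG ratio, the values by transcript GC content and the marker sums were added after seeing the data. Heterozygous, *Chd2*m/m and RNA-binding libraries were not used here. Of the 6 falls, 1 is not reported here.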

Additional observations from a re-analysis of the deposited data

Results flagged for a closer look

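In both sets of ATAC-seq libraries, the ranks of WT and mutant did not overlap at 50 of the 6702 constitutive promoters compared (0.746%), against 90 of all 12443 regions compared (0.723%). In the *Chaserr*-/- set alone 13.7% of these promoters did not overlap and in the double mutant set 5.10%. At 19 of the 50 the directions were opposite and at 31 they were the same. Opposite means every *Chaserr*-/- library on one side of its WT libraries and every *Chaserr*-/- *Chd2*m/m library on the other side of its own. Over all regions the directions were opposite at 38 of the 90 and the same at 52. Opposite directions thus made up 0.283% of the promoters compared and 0.305% of all regions compared, so the count is no result about promoters. The difference between the sets was not tested. *Psmd12*, a proteasome subunit, had ranks of 65.2, 55.3 and 64.3 in WT and 88.7, 83.0 and 80.2 in *Chaserr*-/-, but 72.9, 60.4 and 94.9 in WT and 18.2, 28.5 and 47.1 in the double mutant. *Rbmx*, an RNA-binding protein, had 27.6, 18.2 and 37.2 against 61.7, 45.4 and 43.2, but 35.4, 31.1 and 31.0 against 11.8, 10.8 and 5.57. *Il1rap*, a coreceptor of interleukin 1, had 67.9, 76.4 and 83.9 against 62.3, 59.7 and 48.7, but 20.9, 23.2 and 25.7 against 28.4, 70.4 and 57.5. The double mutant values include the 2 libraries with the fewest peaks.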

How the results depend on the processing

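The number of constitutive promoters was 10839 with peaks of a −log10 q of at least 5, 10910 with the summit within 300 bases of the start and 11640 to 11952 with 1 library left out. No alternative called a promoter between genotypes in either set. No paired analysis was possible because replicates 4 to 6 (WT) and 1 to 3 (*Chaserr*-/-) have no number in common. In the double mutant set, a fit with the replicate block called 0 promoters, with 54 at an unadjusted p under 0.05 (148 of all regions). Samples of the same number deviated with correlations of −0.120, −0.125 and 0.483, so the numbers were not taken as pairs. The count of genes called by edgeR among those with a constitutive promoter (3) was 2176 with DESeq2, 1137 with no filter on low counts, 1131 with at least 10 counts in every library, and 0 to 2324 with 1 culture left out. The adjusted p-values of many genes lay just above the threshold. The correlation of rank with expression (0.188) was 0.219 with WT mEFs of the *Chaserr*+/- pregnancy, 0.306 with the rank of the −log10 q value, 0.0723 among genes of at least 1 FPKM and 0.0986 at a CpG ratio of at most 0.6, and the cause was not tested. Of the values of single genes (14 rank differences, 7 RNA fold changes) and of the counts of genes below 0 in 8 lists, 248 stayed on their side of the threshold or within 1.5 times, 18 passed the threshold and 9 no longer did. None of the single genes changed direction. The median RNA fold change of RNA polymerase II subunits went from −0.13 to 0.02 without *Chaserr*-/- replicate 1, and that of ribosomal protein genes from 0.003 (34 of 69 below 0) to −0.08 (42 of 69) without WT replicate 5. Precision is limited by 3 libraries a group and by fold enrichments without read counts.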
